A study of Mus musculus with 6 samples.

Results

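The genes described here are the subunits of NF-kB and the inhibitors that its activity induces. NF-kB is a family of dimeric transcription factors held in the cytoplasm by IkB proteins. Receptor signals activate the IKK complex, which marks the IkB proteins for destruction and frees the dimers to enter the nucleus, and among the first genes then transcribed are those of the IkB proteins and of other brakes. In B lineage cells the pathway is known for its part in survival and in signalling through the B cell receptor, toll-like receptors and receptors of the TNF family. The 10 genes were taken from a list chosen with earlier results of these data known, and each was represented by its brightest probe set among those annotated with exactly 1 gene symbol. Of the 10, 9 were measured out of 19938 genes in all, each by 1 probe set. Nfkb1 had no probe set annotated with exactly 1 symbol and is not analysed here.

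RNA came from bone marrow B cells of mice on the C57BL/6 background, in 3 KO samples (genotype Jup-/-, lacking gamma-catenin) and 3 WT samples (genotype Jup+/+), labelled as biological replicates, with 1 array each. Gamma-catenin, encoded by Jup, is a junction protein related to beta-catenin. Both groups were treated alike: CD45.1+ mice were reconstituted with CD45.2+ fetal liver cells, and after at least 8 weeks the marrow of these chimeras was transduced with a retrovirus for BCR-ABL1 and GFP and given to lethally irradiated CD45.1+ recipients. At day 21 the GFP+ B220+ BP-1+ CD45.2+ cells were sorted, so the controls carry BCR-ABL1 too and the 2 groups differ in the genotype of the donor. The labels do not say how many mice gave cells to a sample, how many transduced clones it held or what age the animals were.

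Values are log2 expression after RMA, an array normalization, and all differences are KO minus WT on the log2 scale. The array medians lay between 7.53 and 7.61, and the precision is limited by the number of arrays. Jup measured 7.04, 7.06 and 7.27 in the KO arrays, against 8.04, 7.62 and 8.51 in the WT arrays, so the targeted gene was lower in every KO array (limma adjusted p = 0.171). Markers of the sorted cells were bright in all 6 arrays, with Cd79a between 13.60 and 13.76 and Enpep, which encodes BP-1, between 12.23 and 12.63. WT replicate 2 stood apart by sex, with the X-inactivation RNA Xist at 6.20, against 13.03 to 13.38 in the other arrays. Over all 21789 probe sets tested, 11 rose and 15 fell in KO at an adjusted p under 0.05, which is 0.119% of them.

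Of the 7 members for which RefSeq gave a promoter window, 6 hold a kB motif there, the DNA element that NF-kB dimers bind. The window runs from 250 bases before to 50 bases after the start of transcription in GRCm38.p6, and the kB consensus was searched on both strands. It was found in 9.55% of the 27025 genes with such a window. The sequences shown are the 130 bases before the start for the 5 members whose motif lies in that stretch, on the strand of the gene, with the motif in capitals, so that the elements can be compared between subunits and inhibitors.
Rel: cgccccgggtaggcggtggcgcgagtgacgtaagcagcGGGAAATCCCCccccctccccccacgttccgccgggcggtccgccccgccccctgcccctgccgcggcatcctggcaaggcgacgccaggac
Nfkb2: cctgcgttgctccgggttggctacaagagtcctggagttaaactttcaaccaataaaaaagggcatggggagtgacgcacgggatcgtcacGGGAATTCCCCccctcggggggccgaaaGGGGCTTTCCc
Nfkbia: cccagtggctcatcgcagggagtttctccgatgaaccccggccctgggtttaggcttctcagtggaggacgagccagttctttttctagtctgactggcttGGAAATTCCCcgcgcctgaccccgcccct
Nfkbie: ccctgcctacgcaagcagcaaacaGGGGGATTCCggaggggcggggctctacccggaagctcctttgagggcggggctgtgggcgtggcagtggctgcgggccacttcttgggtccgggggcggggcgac
Tnfaip3: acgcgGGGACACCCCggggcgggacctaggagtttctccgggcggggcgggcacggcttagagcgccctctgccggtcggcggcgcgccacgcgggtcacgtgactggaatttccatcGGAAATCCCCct

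These stretches lie at chr11:23770970-23771099 for Rel, chr19:46304607-46304736 for Nfkb2, chr12:55492648-55492777 for Nfkbia, chr17:45555570-45555699 for Nfkbie and chr10:19015411-19015540 for Tnfaip3. Nfkb2 and Nfkbie are on the plus strand and the others on the minus strand. Counted from the start, the motif of Nfkbia runs from base -29 to base -20 and that of Rel from base -92 to base -82, where it reads as an overlapping match on both strands. Nfkb2 and Tnfaip3 hold 2 separate matches each in the stretch shown. Nfkb2 has 3 annotated windows and Tnfaip3 has 2, and the sequence shown is from the first of each. In Bcl3 the match lies just after the start, from base 3 to base 12. The window of Rela holds no match, which says only that these letters are absent there. A looser pattern, GGGNNNNNCC, is in the windows of all 7 members and in those of 53.5% of genes. A match is a description of the sequence and not a measured site.

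None of the 9 measured members passed the threshold, against 0.119% of all probe sets, and in none did the KO and WT arrays separate. At an unadjusted limma p under 0.05 the count was also 0, where 9.22% of all probe sets passed (4.48% higher and 4.73% lower in KO), and the arrays did not overlap for 14.0% of all probe sets. The KO mean was the higher in 8 members and the lower in Bcl3, where 55.8% of all probe sets had a lower KO mean. Rela and Tnfaip3 turned sign under a further quantile normalization. The median difference of the 9 members was 0.051, against -0.016 over all probe sets. For all 9 members the spread among the WT arrays, from lowest to highest, was wider than the difference between the groups, as it was for 83.0% of all probe sets. In sorted bulk RNA, fewer cells of a kind and less RNA per cell cannot be told apart.

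**Figure D1:**
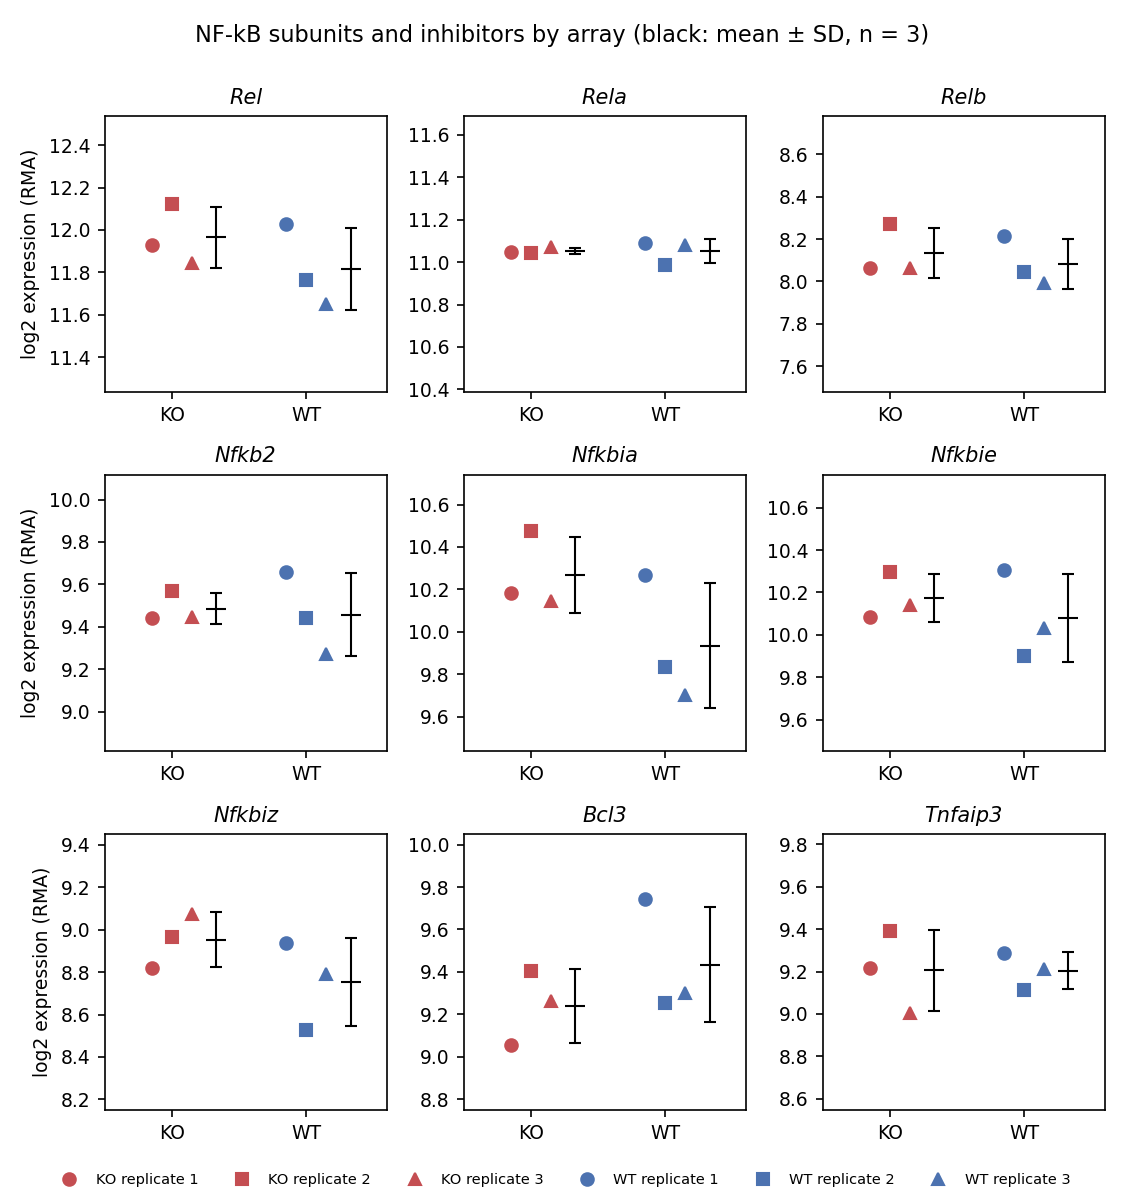
Log2 expression of the 9 measured members in each array, KO left and WT right, with symbols for the replicates and black bars for the mean ± SD (n = 3). The panels span the same log2 range, and the KO and WT points overlap in every panel.

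Among the subunits, Rel encodes c-Rel, which is prominent in lymphocytes. It measured 11.93, 12.12 and 11.84 in the KO arrays, against 12.03, 11.77 and 11.65 in the WT arrays. WT replicate 1 lay inside the KO values and the 2 other WT arrays below them. The difference was 0.15 (SE 0.12, limma adjusted p = 0.787), with a 95% interval of -0.12 to 0.42.

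Rela encodes the broadly expressed transactivating subunit of the classical pathway. Its KO values were 11.05, 11.04 and 11.07, and its WT values 11.09, 10.99 and 11.08. All 6 arrays lay within a narrow band. The difference of 0.00039 (SE 0.072, limma adjusted p = 0.999) had a 95% interval that reached 1.12-fold in either direction.

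Relb and Nfkb2 encode the partners of the alternative pathway, in which the Nfkb2 precursor is processed into a subunit that pairs with RelB. Relb measured 8.07, 8.27 and 8.07 in the KO arrays, against 8.22, 8.04 and 7.99 in the WT arrays. Nfkb2 measured 9.44, 9.57 and 9.44 in the KO arrays, against 9.66, 9.44 and 9.27 in the WT arrays. In both genes KO replicate 2 was the highest KO array and WT replicate 1 the highest WT array. The differences were 0.051 (SE 0.095, limma adjusted p = 0.941) for Relb and 0.029 (SE 0.11, limma adjusted p = 0.969) for Nfkb2. Their 95% intervals allowed at most 1.20-fold and 1.21-fold higher expression in KO, and at most 1.12-fold and 1.16-fold lower. Without KO replicate 2 both differences turned sign, to -0.018 for Relb and -0.013 for Nfkb2, and Nfkb2 stood at -0.063 without WT replicate 3.

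Of the 9 members Nfkbia had the largest difference. It encodes IkB alpha, the inhibitor that is degraded on activation and quickly made again by NF-kB itself. Nfkbia measured 10.18, 10.48 and 10.15 in the KO arrays, against 10.27, 9.83 and 9.70 in the WT arrays. The KO arrays all lay above WT replicates 2 and 3, while WT replicate 1 exceeded KO replicates 1 and 3. The KO mean was 10.27 ± 0.18 and the WT mean 9.93 ± 0.30 (SD, n = 3 each). The difference of 0.33 (SE 0.15), or 1.26-fold, did not pass (limma adjusted p = 0.578, unadjusted p = 0.0612), and its 95% interval ran from -0.020 to 0.69. Single arrays moved it from 0.22 without WT replicate 3 to 0.50 without WT replicate 1, with an adjusted p of 0.149 or more in every alternative run.

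Nfkbie encodes IkB epsilon, which retains dimers in the cytoplasm in the same way. It measured 10.08, 10.30 and 10.14 in the KO arrays, against 10.31, 9.90 and 10.03 in the WT arrays. The highest and the lowest value both came from WT. The difference was 0.095 (SE 0.12, limma adjusted p = 0.888) and ranged from 0.0057, when WT replicate 2 was omitted, to 0.21, when WT replicate 1 was.

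Nfkbiz and Bcl3 encode nuclear IkB proteins, which bind NF-kB subunits on DNA and can raise as well as lower transcription. Nfkbiz measured 8.82, 8.97 and 9.08 in the KO arrays, against 8.94, 8.53 and 8.79 in the WT arrays. KO replicates 2 and 3 lay above every WT array, and KO replicate 1 lay among the WT values. The difference was 0.20 (SE 0.12, limma adjusted p = 0.690), and it was 0.088 without WT replicate 2 and 0.29 without WT replicate 1. Bcl3 measured 9.06, 9.40 and 9.26 in the KO arrays, against 9.74, 9.26 and 9.30 in the WT arrays. WT replicate 1 was its highest array and KO replicate 1 its lowest. Bcl3 gave a difference of -0.19 (SE 0.15, limma adjusted p = 0.773), which was -0.037 without WT replicate 1 and -0.28 without WT replicate 2.

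Tnfaip3 encodes the ubiquitin-editing enzyme that shuts off signalling between the receptors and IKK. It measured 9.22, 9.39 and 9.01 in the KO arrays, against 9.29, 9.11 and 9.21 in the WT arrays. Here the KO arrays held both the highest and the lowest value. The difference was 0.00065 (SE 0.11, limma adjusted p = 0.999), with a 95% interval between 1.19-fold lower and 1.19-fold higher in KO. Without KO replicate 2 it was -0.092 and without KO replicate 3 it was 0.10.

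**Figure D2:**
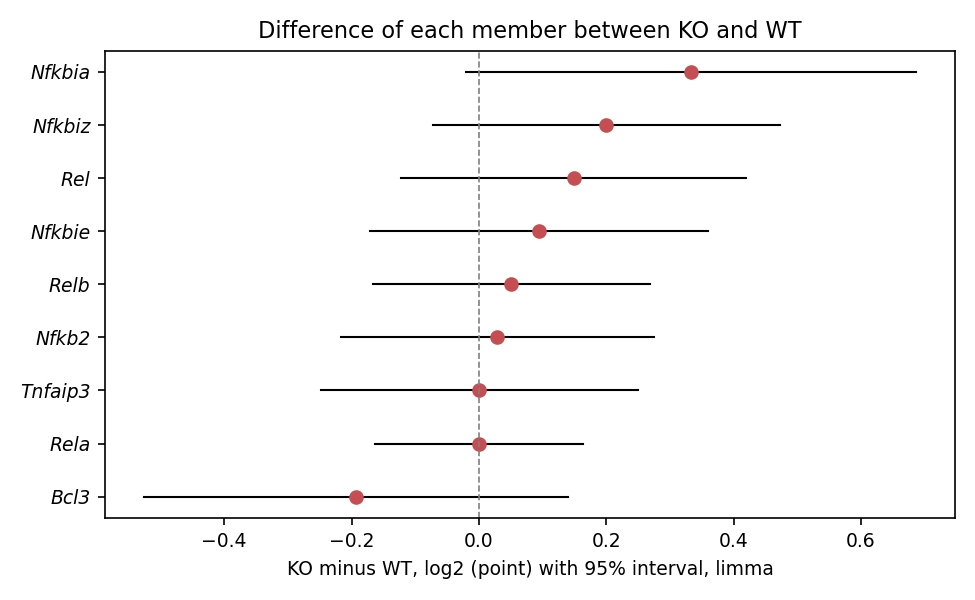
Difference between KO and WT for each measured member, on the log2 scale, with the 95% interval of the limma fit. Every interval includes 0, that of Rela is the narrowest at -0.16 to 0.16, and that of Nfkbia reaches from -0.020 to 0.69.

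The members' averages differed more between arrays of 1 genotype than between the means of the genotypes. As the deviation from each member's WT mean, averaged over the 9 members, KO replicates 1, 2 and 3 were at 0.0034, 0.19 and 0.027, against 0.19, -0.11 and -0.087 in WT replicates 1, 2 and 3. KO replicate 2 and WT replicate 1 thus had the same mean, and WT replicates 2 and 3 lay below all KO arrays. KO replicate 2 held the highest value of 4 members and WT replicate 1 that of 4 others. Over all probe sets these arrays held the highest value in 17.4% and 21.9%. WT replicates 2 and 3 held the lowest value of 3 and 4 members, against 11.6% and 18.8% of all probe sets. All 9 members were above their WT mean in WT replicate 1, and none was in WT replicate 2. By mean deviation, WT replicate 1 was also the highest WT array for the receptors (0.10), IKK genes (0.089), other brakes (0.117) and targets described below. The B lineage (0.032) and mature B cell markers (0.265) were highest there too. It was the lowest WT array for the myeloid (-0.203), T and NK cell (-0.118), erythroid and megakaryocyte (-0.102) and stromal and endothelial markers (-0.095).

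**Figure D3:**
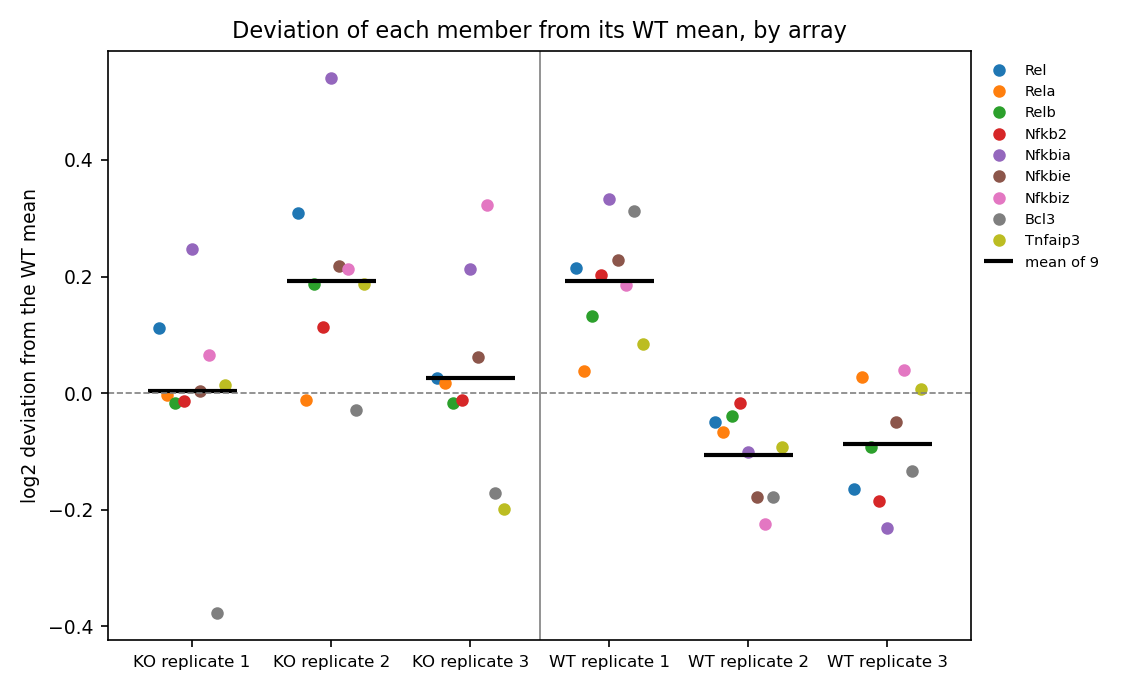
How far each of the 9 members lay from its mean in WT, per array and on the log2 scale, with KO arrays left, WT arrays right and black bars for the mean of the 9. KO replicate 2 and WT replicate 1 both stand at a mean of 0.19, while WT replicates 2 and 3 lie below 0.

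Several members separated by genotype once WT replicate 1 was left out, and without it no member passed after adjustment either. All 9 members were above their WT mean in this array, so leaving it out raised every member's difference. The counts below were chosen after seeing the data. The shares over all probe sets, which were not chosen in that way, are no test of them. Nfkb2, Rel, Relb, Nfkbia, Nfkbie and Nfkbiz, 6 of the 9, were then higher in every KO array than in the 2 remaining WT arrays. With these 5 arrays 14.5% of all probe sets were higher in every KO array, and the groups did not overlap in either direction for 36.6%. At an unadjusted limma p under 0.05, Rel, Nfkbia and Nfkbiz were higher, where 7.42% of all probe sets were higher and 16.1% passed in either direction, and the median difference of the 9 members was 0.13. Without each of the 5 other arrays in turn, 0 members passed an unadjusted p under 0.05 (5.14% to 10.3% of all probe sets), the arrays of 0 or 1 member separated (19.0% to 26.8% of all probe sets), and the median difference lay between 0.0066 and 0.10. Nfkbiz separated without KO replicate 1, higher in KO, and Rela without WT replicate 2, lower in KO. Without WT replicate 2, the array that differed in sex, the median was 0.020.

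Markers of other cells were set beside these values. Over all probe sets, 4.48% were higher and 4.73% lower in KO at an unadjusted limma p under 0.05. The arrays did not overlap for 14.0% of them, in either direction, and 0.119% passed after adjustment. Of 9 measured mature B cell markers, 9 had the higher mean in KO and 5 of them (55.6%) an unadjusted limma p under 0.05, with 0 past the threshold after adjustment. Their mean level was 9.09 to 9.53 in the KO arrays, against 8.51 to 8.93 in the WT arrays. KO replicate 2 was the highest KO array and WT replicate 1 the highest WT array for this list, as for the NF-kB members. The same held for the B lineage and sort gate markers, and for the receptors and the IKK genes described below. Of 23 myeloid markers 19 had the higher mean in KO, 13 were higher in every KO array than in any WT array, 15 (65.2%) were higher at an unadjusted limma p under 0.05, and 3 rose after adjustment, the granule genes Mpo, Elane and Ctsg. The mean level of the list was 8.18 to 8.28 in KO and 7.47 to 7.91 in WT, where WT replicate 1 was the lowest array. Csf1r, Cd14, Cebpa and Adgre1 were the 4 with the lower mean in KO, with differences from -0.15 to -0.024. At an unadjusted limma p under 0.05, 1 of 13 T and NK cell markers was higher and 2 lower (23.1%), with 0 past the threshold. Of 10 erythroid and megakaryocyte markers 1 was higher and 1 lower (20%), and 1 rose after adjustment. Of 13 stromal and endothelial markers 1 was higher and 2 lower (23.1%), and 2 fell after adjustment. The part of any of these cell types in the values of the members was not tested.

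Upstream of NF-kB, the receptors and adaptors held both higher and lower genes. Of 33 measured genes on this list 1 passed over all probe sets, and at an unadjusted limma p under 0.05 7 were higher and 5 lower in KO, 36.4% of the list, where 4.48% of all probe sets were higher and 4.73% lower. The median difference was 0.033. Cd40 is also on the mature B cell list and Cd14 on the myeloid list.

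Ly96 encodes the co-receptor through which TLR4 binds lipopolysaccharide. It measured 10.01, 9.98 and 9.76 in the KO arrays, against 10.54, 10.61 and 10.55 in the WT arrays. Every KO array was below every WT array, and Ly96 fell by 0.65 (SE 0.087, limma adjusted p = 0.0487), or 1.57-fold. The call was close to the threshold and was lost when any array but KO replicate 1 was left out, with adjusted p-values up to 0.151. With the replicate number as a block the call was lost too (limma adjusted p = 0.0704). Tlr4 itself measured 8.12, 7.82 and 7.80 in the KO arrays, against 8.42, 8.46 and 8.44 in the WT arrays. These groups did not overlap either, and the difference of -0.53 (SE 0.099) did not pass (limma adjusted p = 0.127).

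Tnfrsf11a, which encodes the receptor RANK, measured 8.49, 8.39 and 8.47 in the KO arrays, against 9.17, 8.93 and 8.76 in the WT arrays, a difference of -0.50 (SE 0.11, limma adjusted p = 0.173). Cd180, a TLR4-related receptor of B cells, measured 10.31, 10.77 and 10.61 in the KO arrays, against 9.98, 9.43 and 9.79 in the WT arrays, a difference of 0.83 (SE 0.16, limma adjusted p = 0.133). Neither passed, and neither overlapped between the groups. Cd40, a receptor for T cell help, gave 0.47 (SE 0.13, limma adjusted p = 0.293). Prkcb, a kinase between the B cell receptor and IKK, gave 0.34 (SE 0.10, limma adjusted p = 0.357).

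**Figure D4:**
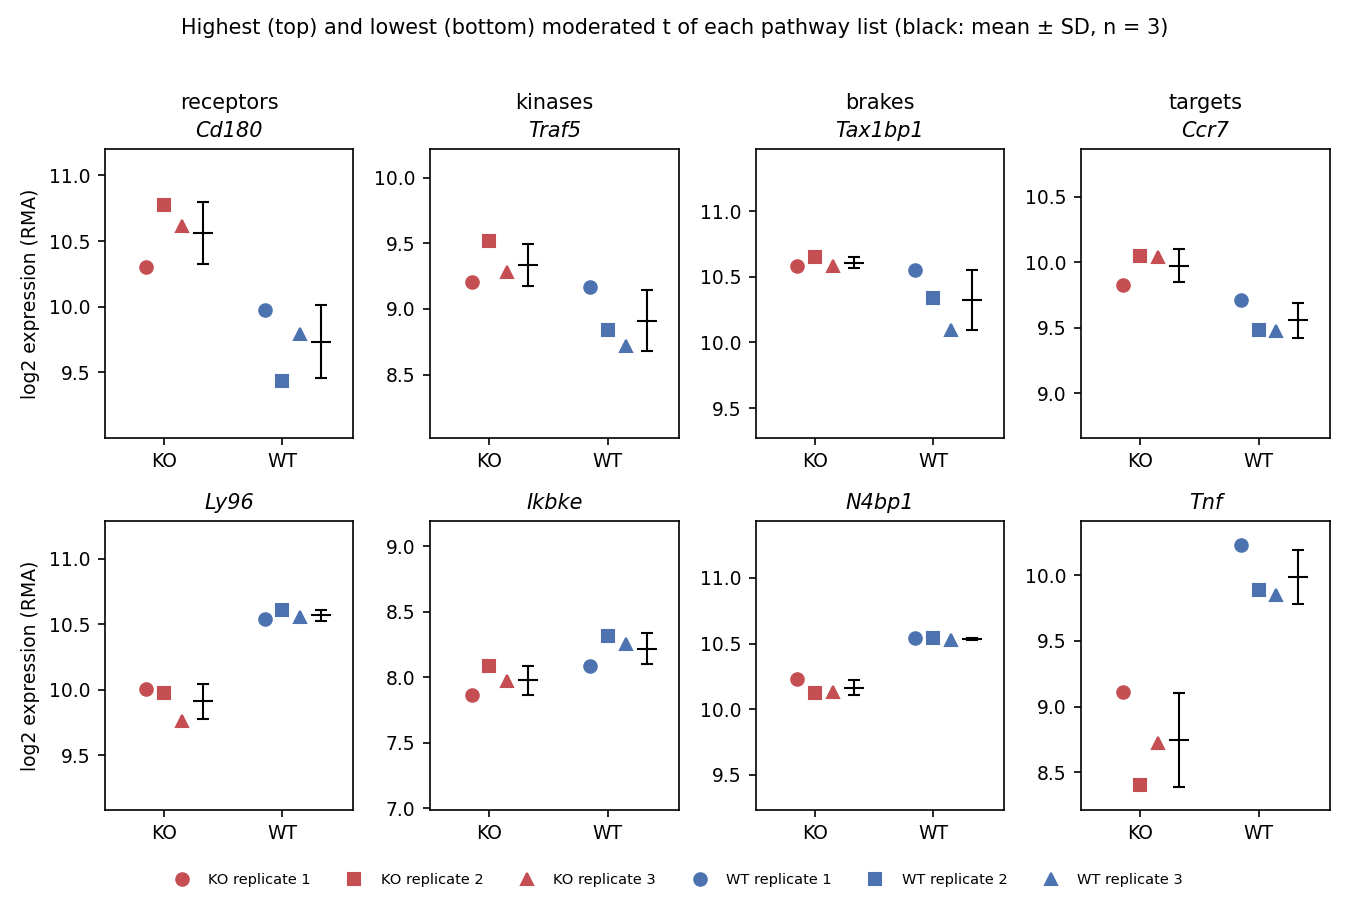
Log2 expression by array of the genes with the highest (top) and lowest (bottom) moderated t of each of the 4 other pathway lists, KO left and WT right, with black bars for the mean ± SD (n = 3). All but Ikbke separate KO from WT, as do 14.0% of all probe sets, and the choice by t on these same arrays favours separation. Among the 8 genes Ly96 alone passed over all probe sets.

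The IKK complex and its activators gave no call among 22 measured genes. At an unadjusted limma p under 0.05 4 were higher and 1 lower, or 22.7%, against 9.22% of all probe sets, and the median was 0.020. Traf5, an adaptor of TNF family receptors, measured 9.21, 9.52 and 9.28 in the KO arrays, against 9.17, 8.84 and 8.72 in the WT arrays, a difference of 0.42 (SE 0.13, limma adjusted p = 0.365). Birc3, a ubiquitin ligase at these receptors and itself an NF-kB target, measured 10.27, 10.38 and 10.32 in the KO arrays, against 10.21, 9.99 and 9.82 in the WT arrays, a difference of 0.32 (SE 0.11, limma adjusted p = 0.399). In both genes every KO array lay above every WT array, and WT replicate 1 came nearest to KO. Traf6, the ligase of toll-like receptor signalling, gave 0.24 (SE 0.088, limma adjusted p = 0.453). On the other side, the IKK-related kinase gene Ikbke gave -0.24, Map3k7, which encodes the IKK-activating kinase TAK1, gave -0.20, and the kinase gene Map3k8 gave -0.29, with limma adjusted p-values of 0.476, 0.569 and 0.575.

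The other IkB proteins and brakes had a median difference of 0.0014 over 18 measured genes. No gene of this list passed, and at an unadjusted limma p under 0.05 1 was higher and 1 lower, 11.1% of the list and close to the 9.22% of all probe sets. N4bp1, an inhibitor of NF-kB signalling, measured 10.23, 10.13 and 10.13 in the KO arrays, against 10.54, 10.54 and 10.53 in the WT arrays. The WT arrays were nearly equal and all above KO, with a difference of -0.37 (SE 0.072, limma adjusted p = 0.133). Tax1bp1, an adaptor of Tnfaip3, gave 0.28 (SE 0.11, limma adjusted p = 0.501). The deubiquitinase gene Otulin gave 0.23 and the nuclear IkB gene Nfkbid 0.14. Commd1 and Tnip3, the lowest by moderated t after N4bp1, gave -0.091 and -0.085 (limma adjusted p = 0.779 and 0.840). Tnip3 was dim, with a mean of 5.14 at percentile 10.8 of the tested probe sets.

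NF-kB target genes had a median of -0.012 over 53 measured genes, and none of these passed over all probe sets. At an unadjusted limma p under 0.05 4 were higher and 5 lower, or 17.0%, against 9.22% of all probe sets. Tnf encodes the ligand that both activates NF-kB and is transcribed by it. It measured 9.11, 8.40 and 8.72 in the KO arrays, against 10.23, 9.89 and 9.85 in the WT arrays. All KO arrays lay well below all WT arrays, 2.37-fold in the means, and the difference of -1.24 (SE 0.18) just missed the threshold (limma adjusted p = 0.0622). It passed in 5 of 15 alternatives, among them 1 probe set per gene (adjusted p = 0.0495) and array weights (0.0260). The array weights gave WT replicate 1 the lowest weight, 0.336. With the replicate number as a block Tnf also passed (0.0417). Tnf did not pass with all rows (0.142) or when any array but KO replicate 1 was left out (up to 0.1705). Its neighbour in the TNF family, Lta, measured 8.50, 7.88 and 7.80 in the KO arrays, against 9.19, 9.02 and 8.72 in the WT arrays, a difference of -0.92 (SE 0.19, limma adjusted p = 0.166).

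Other targets ran both ways. Myc, a growth regulator, gave -0.48 (SE 0.14, limma adjusted p = 0.346). The chemokine receptor gene Ccr7 gave 0.42 (SE 0.099, limma adjusted p = 0.230), the gelatinase gene Mmp9 0.52 (SE 0.15, limma adjusted p = 0.318) and the cytokine gene Il15 0.67 (SE 0.20, limma adjusted p = 0.356). Mmp9 measured 8.34, 8.41 and 8.14 in the KO arrays, against 7.64, 8.11 and 7.56 in the WT arrays, with WT replicate 2 nearest to KO. It is also made by neutrophils, whose markers are among the myeloid genes counted above, and their part in this value was not tested.

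**Figure D5:**
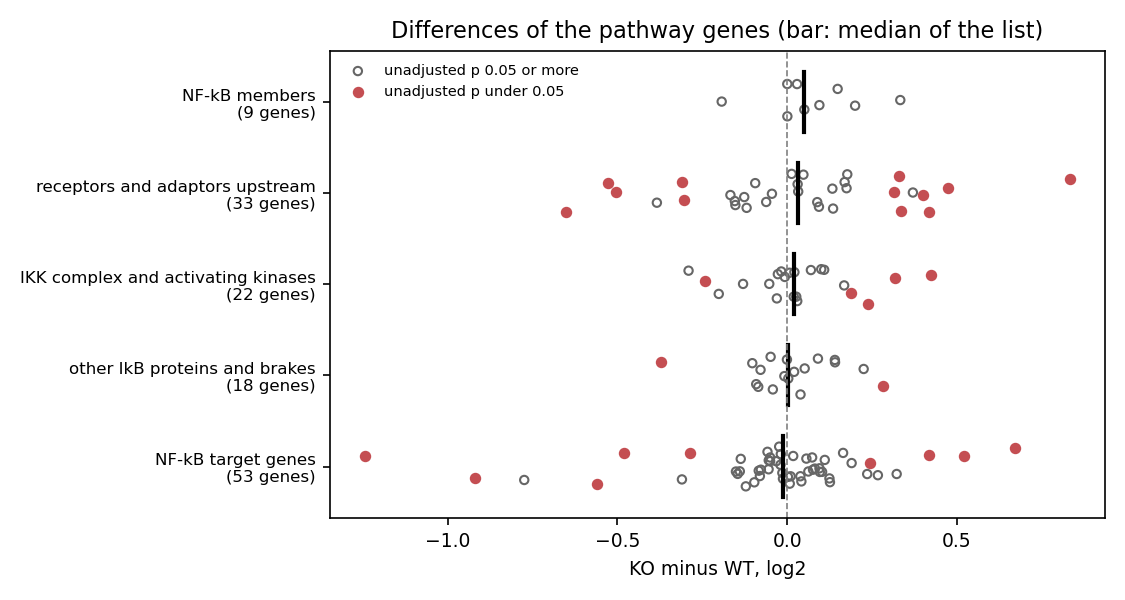
Difference between KO and WT, on the log2 scale, for the measured genes of the NF-kB members and of 4 other pathway lists, with filled points at an unadjusted limma p under 0.05 and bars at the list medians. The 9 members lie between -0.19 and 0.33 with no filled point, while the receptors span -0.65 to 0.83 and the targets -1.24 to 0.67.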

How the data were processed

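The authors deposited log2 values of 1-colour Affymetrix arrays, made from 100 ng of total RNA per sample. Per the submitters' processing notes the tools were Affymetrix Expression Console 1.1 and RMA, and the options and annotation are not given in the sources used here. RMA equalises the arrays and compresses changes of dim transcripts. Of 35556 rows, 21789 had exactly 1 symbol and were tested, 1621 had several and 12146 are unnamed here.

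The 2 genotypes were contrasted by limma 3.58.1 (R 4.3.3; linear model, empirical Bayes with a constant prior) on all 6 arrays without a covariate. Benjamini-Hochberg adjustment covered all 21789 tested rows, and an adjusted p under 0.05 counted as passing. SEs and 95% intervals are the moderated ones, and the intervals are not adjusted for the number of genes. The fit was tested on simulated data. Members and lists were chosen with earlier results of these data known. The genes named are Jup, the members, Tnf, and in each pathway list those past the threshold and the 3 highest and 3 lowest by moderated t. Xist, Cd79a, Enpep and the marker genes describe the samples. Promoter sequences are from RefSeq (GRCm38.p6). Alternatives were the rows tested, the prior, array weights, scaling, the replicate number as a block, the threshold and each array left out.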

Additional observations from a re-analysis of the deposited data

How the results depend on the processing

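The count of members past the threshold was 0 in the main analysis and in all 16 alternatives run. Their median difference stayed above 0 in each alternative, between 0.0066 without KO replicate 2 and 0.13 without WT replicate 1. The count over all probe sets moved more, with 26 in the main analysis. It was 69 (10 up, 59 down) with all rows of the table, 40 with a trended and robust prior, 150 (93 up, 57 down) with array weights, 17 with a further quantile normalization, 58 at an adjusted p under 0.1, and 5 to 82 without 1 array. Further quantile normalization turned the sign of Rela (-0.0020) and Tnfaip3 (-0.0047), and the cause was not tested. Without 1 array the differences ranged from -0.033 to 0.019 for Rela, from -0.092 to 0.10 for Tnfaip3, from -0.063 to 0.13 for Nfkb2 and from -0.018 to 0.12 for Relb. The call of Ly96 was also lost with all rows (adjusted p = 0.0803), with quantile normalization (0.0563) and with the replicate block (0.0704), under which Tnf passed (0.0417). With array weights Tlr4 (limma adjusted p = 0.043), Cd180 (0.035), N4bp1 (0.046) and Ccr7 (0.0485) passed. Without KO replicate 1 Tlr4 (0.036) and Lta (0.033) passed. Tlr4, Cd180, N4bp1, Ccr7 and Lta passed in no other setting. With the replicate number as a block, 19 probe sets and 0 members passed and the members' median was 0.051. The sample descriptions carry numbers shared between KO and WT that match the replicate numbers, and their meaning is not stated. Same-numbered KO and WT arrays correlated in their deviations at 0.104, -0.0043 and 0.275. KO replicates 1 and 3 correlated best with the WT array of their number, and KO replicate 2 with WT replicate 1 (0.134). The numbers were not taken as pairs in the main fit, and the labels do not say whether the samples were paired. The counts of members by non-overlap and by unadjusted p, with all arrays and without each, were chosen after seeing the data.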
